A study of Mus musculus with 6 samples.

Results

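A small set of barcodes in the stromal vascular fraction of inguinal white adipose tissue (iWAT) carried transcripts of the adipocyte genes Adipoq, Plin1 and Cidec. They were chosen by measured values: at least 500 UMIs (unique molecular identifiers, each counting 1 captured RNA molecule), over 200 genes, and at least 3 UMIs of the 3 genes together that also made up at least 5 of every 10000 UMIs, with no limit on mitochondrial UMIs. This rule kept 544 of the 67282 barcodes that had at least 500 UMIs and over 200 genes, out of 68103 deposited. They are called adipocyte-gene barcodes here and not adipocytes, because most of them also carried markers of endothelial or mural cells. The cells came from 9-week-old (young) and 57-week-old (aged) wild-type C57BL/6 mice, described in the methods as male. All mice were first kept at 30 °C for 3 weeks. They then stayed at 30 °C (thermoneutrality, TN) or spent the last 3 days (3D) or 14 days (14D) at 6 °C. There was 1 library for each age and temperature, 6 in all, and the number of mice behind each library was not given in the sources used here. The methods on isolating stromal vascular cells state that mice were not pooled unless this was indicated. The lymph node was removed, the tissue was digested with collagenase and dispase, and living cells that lacked the leukocyte marker CD45 were sorted, so the fraction was not prepared to hold mature adipocytes.

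White adipocytes store triglyceride in a large lipid droplet and secrete hormones such as adiponectin, and because of their fat they float when digested tissue is spun, whereas the stromal vascular pellet holds fibroblasts with the adipocyte progenitors, endothelial cells and mural cells. Endothelial cells line the vessels and pass fatty acids from the blood to adipocytes. Mural cells, the pericytes and smooth muscle cells around vessels, carry contractile proteins. Of the 3 genes of the rule, Adipoq encodes the hormone adiponectin, Plin1 encodes perilipin 1, which coats the lipid droplet and controls lipolysis, and Cidec encodes a droplet protein that promotes droplet fusion. In the mm10 build Adipoq spans chr16:23146536-23158028, Plin1 spans chr7:79720218-79732903 and Cidec spans chr6:113424634-113435760, and Car3, a carbonic anhydrase gene abundant in adipocytes that the rule did not use, spans chr3:14863512-14872523.

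The promoters of Plin1 and Adipoq are shown because these genes parted between the kinds of barcode described next. Both are RefSeq sequences of GRCm38.p6, from 250 bases before to 50 bases after the start that RefSeq lists, which for Plin1 lies inside the gene span given above, Plin1 on the minus strand at chr7:79732727-79733026 and Adipoq on the plus strand at chr16:23146286-23146585. Capitals mark TTNNGCAA, a form of the C/EBP motif (C/EBPs are transcription factors of adipocyte differentiation), found on either strand.
Plin1: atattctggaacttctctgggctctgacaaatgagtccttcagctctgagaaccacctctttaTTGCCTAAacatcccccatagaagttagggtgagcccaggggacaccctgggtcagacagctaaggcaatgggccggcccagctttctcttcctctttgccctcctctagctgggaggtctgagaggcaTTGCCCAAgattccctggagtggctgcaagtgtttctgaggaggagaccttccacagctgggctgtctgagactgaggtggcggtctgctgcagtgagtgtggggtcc
Adipoq: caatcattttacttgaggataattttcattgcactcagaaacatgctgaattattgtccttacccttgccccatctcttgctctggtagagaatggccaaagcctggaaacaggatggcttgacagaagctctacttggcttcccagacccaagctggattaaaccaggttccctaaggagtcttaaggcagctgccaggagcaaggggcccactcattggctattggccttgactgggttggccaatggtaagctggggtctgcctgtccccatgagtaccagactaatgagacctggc
The Plin1 window held 2 matches and the Adipoq window none. Cidec has 2 listed starts, 1 with no match and 1 with 1 match. The motif was in 3547 of all 32851 promoter windows of this length (10.8%). The letters AGGTCA, a half-site of nuclear receptors such as PPARγ, were in none of these 4 windows on either strand and in 16.3% of all windows. A match is a description of the letters only.

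The adipocyte-gene barcodes were shallow and rich in mitochondrial UMIs compared with the rest. Their median was 2922 UMIs (500 to 34232) and 1383 genes, against 6816 UMIs and 2320 genes in the other barcodes. Mitochondrial UMIs made up a median of 5.73% against 2.71%, and 139 members (25.6%) exceeded 10%, against 5.76% of the others. In the libraries in the order young TN, 3D and 14D and aged TN, 3D and 14D, the members' median UMIs were 2438, 3487, 2315, 2540, 2839 and 3240, and those of the other barcodes were 9125, 7895, 7277, 6295, 6595 and 2590. Aged 14D was therefore the library in which members were deeper than the rest. No barcode sequence of a member was shared between libraries.

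The rule cut a continuous distribution. The members nearest to the limit had 5.01, 5.02 and 5.08 UMIs of the 3 genes per 10000, and the nearest barcodes outside it had 4.97, 4.97 and 4.91. Exactly 3 UMIs were found in 145 members (26.7%), and another 180 barcodes had 3 or more UMIs but fell under 5 per 10000. At least 1 UMI of the 3 genes was found in 2200 of the barcodes outside the rule (3.30%). Only 197 members had a UMI of all 3 genes.

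Car3 followed the rule in most members and split off a second set in the rest. It was detected in 457 of 544 members (84.0%) and in 7.52% of the other barcodes. A set of 86 members met the rule through Plin1 alone, and Car3 was detected in 1 of them. In the remaining 458 members Car3 was detected in 456.

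The vascular markers divided the members in the same way. Barcodes were sorted by the summed UMIs of 3 marker lists, with limits set after the values were seen (30 per 10000 for the endothelial and the mural list and 200 per 10000 for the fibroblast list), so the division is a description without a test. Endothelial markers passed the limit in 266 members (48.9%), mural markers in 96 (17.6%), both in 17, fibroblast markers without either in 26, and 139 (25.6%) were low in all 3 lists. A vascular list past its limit set the kind whatever the fibroblast list held. The endothelial-marker kind thus includes 9 members, and 3193 of the 8976 other barcodes of that kind, that also passed the fibroblast limit. The mural set stood apart, with a median of 242 mural UMIs per 10000 and 18 members at 20 to 40, while 292 members had no mural UMI. The endothelial and the low set ran into each other, with 63 members at 20 to 40 endothelial UMIs per 10000. Limits of 20 and 50 per 10000 left 289 and 232 endothelial-marker members and 106 and 178 low ones, and 93 and 97 mural-marker ones.

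**Figure D1:**
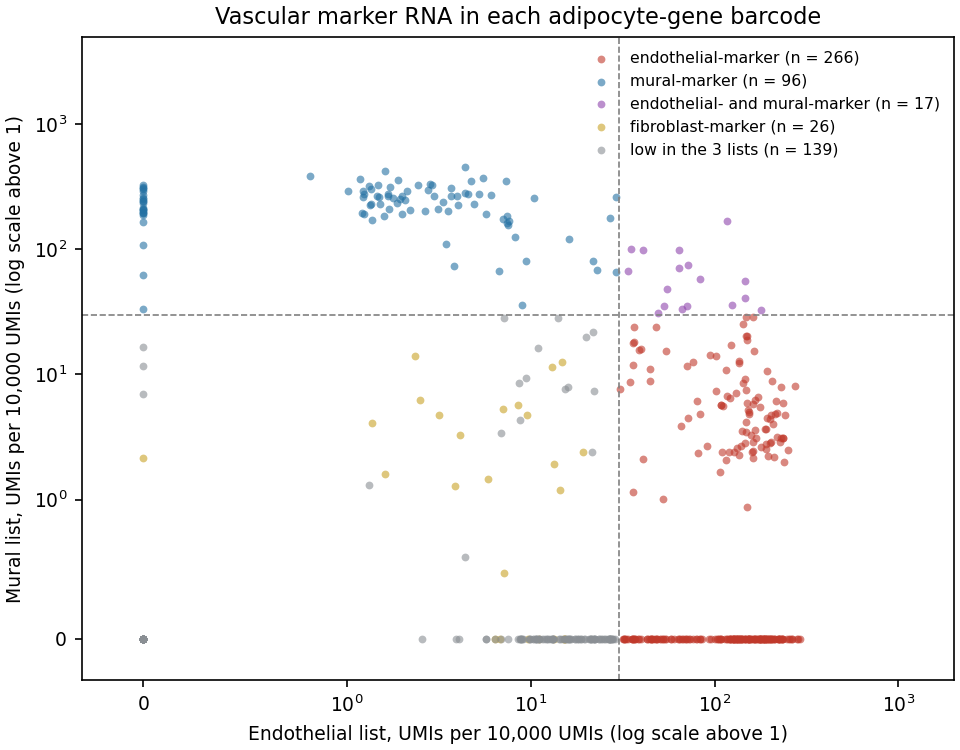
Each point is 1 of the 544 adipocyte-gene barcodes, with its endothelial-marker UMIs per 10000 on the x axis and its mural-marker UMIs per 10000 on the y axis, coloured by kind, on axes that are logarithmic above 1, and dashed lines mark the limits of 30. The mural-marker barcodes form a separate group at the top left, and the endothelial-marker and low barcodes form a continuous band along the bottom.

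Members were a small part of every kind. They made up 2.88% of all barcodes with endothelial markers, 1.86% of those with mural markers, 0.0515% of those with fibroblast markers and 8.12% of those low in the lists. Endothelial-marker members were about as deep as the 8976 other endothelial-marker barcodes, with medians of 2984 and 2850 UMIs. They also held as much of the endothelial list, with medians of 140 and 122 UMIs per 10000. The adipocyte identity list, 25 genes that include Fabp4, Car3 and the genes of the rule, stood at 997 against 328 UMIs per 10000. The median of the fibroblast list was 37.3 against 55.5 UMIs per 10000. The low members had a median of 1102 UMIs, 563 genes and 9.12% mitochondrial UMIs. No doublet caller was run, and the parts of doublets and of free RNA in these barcodes were not tested.

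In the endothelial-marker members the adipocyte genes came together. Summed over the 6 libraries, Car3 stood at 6888 counts per 1000000 UMIs (CPM) against 273 in the other endothelial-marker barcodes. Without the barcodes past the fibroblast limit, a setting added after the data were seen, these were 7078 and 422 CPM. Cfd, which encodes the adipocyte-secreted protease adipsin, stood at 6081 against 216 CPM. Retn, which encodes the hormone resistin, stood at 1128 against 37.6 CPM. These 3 genes were not part of the rule, and the other endothelial-marker barcodes already carried them above the fibroblast-marker ones, where Car3 stood at 24.2 and Cfd at 4.36 CPM. The ratio of Cfd to Car3 UMIs was 0.883 in endothelial-marker members and 0.791 in the other endothelial-marker barcodes, against 0.180 in other fibroblast-marker barcodes.

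After every barcode was thinned to 500 UMIs, Car3 was detected in 91.7% of endothelial-marker members (95% exact binomial interval 87.7 to 94.7%, n = 266) and in 11.5% of the other endothelial-marker barcodes (10.8 to 12.2%, n = 8976). The share was 98.6% in the low members (94.9 to 99.8%, n = 139) and 6.23% in other low barcodes (5.09 to 7.55%, n = 1572). It was 9.38% in mural-marker members (4.38 to 17.1%, n = 96) and 0.872% in the other fibroblast-marker barcodes (0.792 to 0.957%, n = 50475), the lowest of these. The intervals cover counting error only.

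In the low members, the shallowest kind, Adipoq, Plin1 and Cidec had to be high per UMI to reach the 3 UMIs of the rule. Car3, Cfd and Retn, outside the rule, were highest in them too, while Fabp4, at 54265 CPM, was below its 65179 CPM in the endothelial-marker members. Car3 stood at 20100, Cfd at 22433, Retn at 4272, Cidec at 2146, Adipoq at 1760 and Plin1 at 689 CPM. Malat1, a nuclear RNA, was at 4450 CPM in them and at 48307 CPM in the other barcodes low in the 3 lists. Young TN gave 953 of its UMIs there (19071 CPM), and without that library the level in low members was 623 CPM.

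The mural-marker members differed from all of these. Plin1 alone brought 85 of the 96 into the rule, and Adipoq, Cidec and Car3 were each detected in 11 (11.5%). Adipoq stood at 28.7 CPM and Cidec at 33.8 CPM in them, against 648 and 718 CPM in the endothelial-marker members. The rule sets this contrast too, since members chosen by Plin1 alone hold neither gene. Outside the rule, Car3 stood at 370 CPM in the mural-marker and 6888 CPM in the endothelial-marker members. Plin1 stood at 671 CPM, a level that the rule sets in members chosen by Plin1 alone. The other mural-marker barcodes also held Plin1, at 44.7 CPM over 5053 barcodes, whereas it stood at 4.53 CPM in the other endothelial-marker and 0.324 CPM in the other fibroblast-marker barcodes. Among the barcodes outside the rule Plin1 was thus highest in the mural-marker ones, where Car3 stood at 24.1 CPM.

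**Figure D2:**
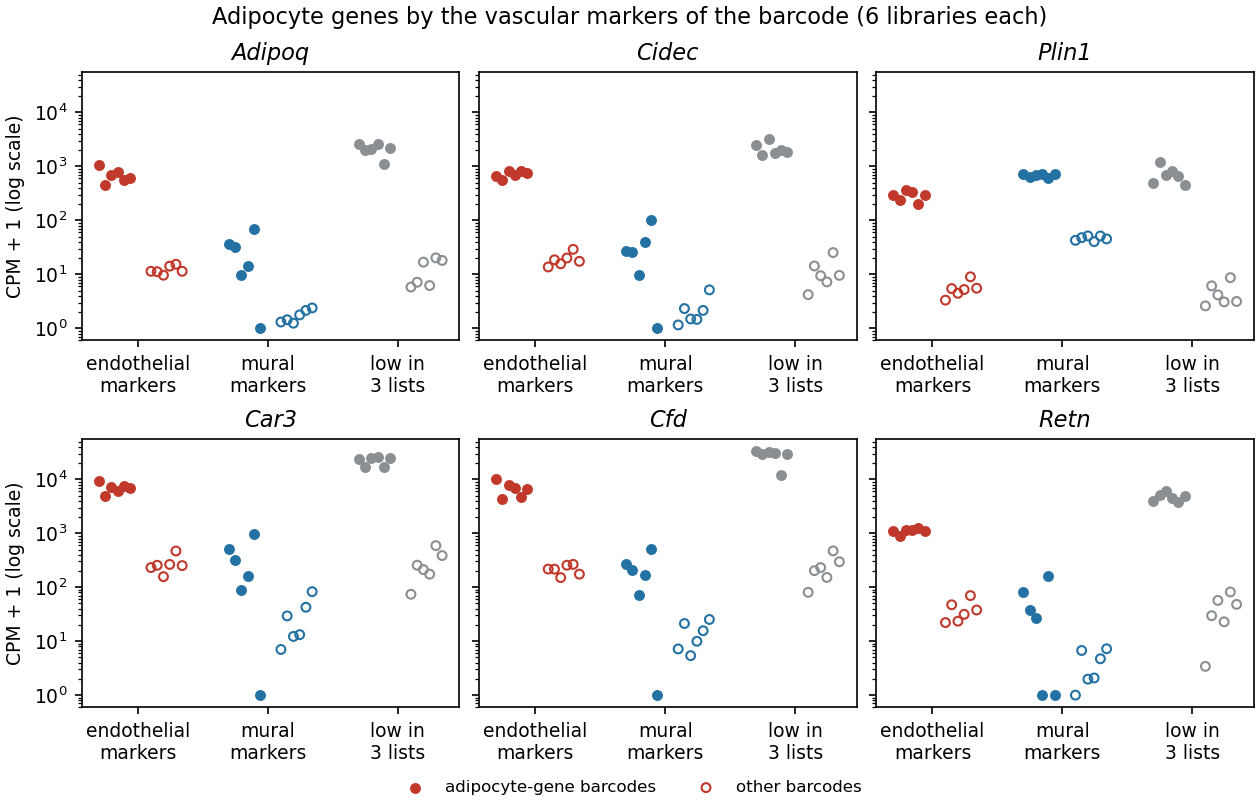
Each panel gives 1 gene in CPM plus 1 on a log axis, with 1 point for each of the 6 libraries, filled for adipocyte-gene barcodes and open for the other barcodes of the same kind. Car3, Cfd and Retn, outside the rule, are high in the endothelial-marker and low members and far lower in the mural-marker members. Adipoq and Cidec differ likewise, a contrast that the rule sets for members chosen by Plin1 alone. Plin1 is at 261, 671 and 689 CPM in the endothelial-marker, mural-marker and low members.

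Over all members, Cfd, Car3 and Retn were the genes furthest above the other barcodes, ranked with a minimum of 100 CPM. They are adipocyte genes that the rule did not use. With values on the log2(CPM + 5) scale averaged over the 6 libraries, Cfd was 7.58 ± 0.70 (SD) higher (6041 against 26.4 CPM), Car3 6.77 ± 0.55 (6000 CPM in members) and Retn 6.76 ± 0.39 (1047 against 4.72 CPM). The genes of the rule came next, Adipoq at 6.39 ± 0.47, Cidec at 6.35 ± 0.44 and Plin1 at 5.68 ± 0.32. Cdo1, a cysteine dioxygenase, followed at 5.50 ± 0.20, then Pck1, an enzyme of glyceroneogenesis, at 5.44 ± 0.53. Hp, haptoglobin, was at 5.32 ± 0.89 and Adig, adipogenin, at 5.32 ± 0.38. Since the members were chosen for genes of the same cell type, these values carry no test.

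Members held more RNA of the adipocyte and vascular lists and less of the fibroblast list than the other barcodes. Of all 4032 genes tested, 37.7% were higher in members in all 6 libraries, and the adipocyte count that follows is in part set by the rule. Apart from the endothelial list, the lists that follow also hold genes too low to be tested. Of the 25 adipocyte identity genes 20 were higher in members than in other barcodes in all 6 libraries, with a sum of 47233 to 77247 CPM per library against 4567 to 7914, and Fabp4, the fatty acid binding protein of adipocytes and capillaries, made up the most (a mean of 40054 CPM). Of 12 endothelial genes 11 were higher in all libraries (3378 to 9146 against 1491 to 2107 CPM), with Gpihbp1, the capillary anchor of lipoprotein lipase, highest at 1610 CPM. Of 10 mural genes 7 were higher in all libraries (3719 to 12752 against 1212 to 2435 CPM). None of the 18 fibroblast genes was (5483 to 14371 against 57071 to 76273 CPM).

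Markers of other cells were sparse. Immune genes summed to 4.55 to 100 CPM, with Adgre1 and Csf1r at 0, Schwann genes to 7.58 to 18.6 CPM, with Mal and Sox10 at 0, and skeletal muscle genes to 4.55 to 18.6 CPM, with Ckm and Myh4 at 0. All 8 epithelial and mesothelial genes were at 0. Red blood cell genes ranged from 9.09 to 19779 CPM, because 4 members held most of them: 1 in young TN with 5327 such UMIs, 1 in young 3D with 506 and 2 in aged 3D with 3377 and 2904.

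The shares of adipocyte-gene barcodes in young and aged libraries overlapped. It was 0.755% in young TN (75 of 9938, 95% exact interval 0.594 to 0.945%), 0.815% in young 3D (91 of 11159, 0.657 to 1.00%) and 0.487% in young 14D (58 of 11907, 0.370 to 0.629%). In aged mice it was 0.802% at TN (89 of 11100, 0.644 to 0.986%), 1.52% at 3D (172 of 11313, 1.30 to 1.76%) and 0.497% at 14D (59 of 11865, 0.379 to 0.641%). Aged 3D stood above the other 5 libraries, and the 14D libraries were the lowest at both ages. The mean was 0.686 ± 0.175% in young and 0.940 ± 0.525% in aged libraries (SD, n = 3 each), a difference of 0.254 points (two-sided exact permutation test, p = 0.6, with 0.1 the smallest p that 3 against 3 allows). Within each of the 3 temperatures aged was higher, by 0.0471 points at TN, 0.705 at 3D and 0.0102 at 14D (exact permutation test with libraries paired by temperature, added after the data were seen, p = 0.25, the smallest it allows). Without aged 3D the difference was -0.0362 points. When every barcode was thinned to 500 UMIs and counted with at least 1 UMI of the 3 genes, it was 0.511 points (0.975% in young and 1.49% in aged libraries, p = 0.3, exact permutation test), and with at least 6 UMIs at 10 per 10000 it was 0.0851 points. Mural-marker members alone, a set added after the data were seen, made up 0.179% of young and 0.109% of aged libraries on average (p = 0.1, exact permutation test, the smallest possible), with 0.1596% in young 14D next to 0.1591% in aged 3D. As a share of all mural-marker barcodes the ages overlapped, at 2.09, 3.13 and 2.76% in young TN, 3D and 14D and 1.04, 2.74 and 0.602% in aged. Within each of the 3 temperatures aged was the lower.

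**Figure D3:**
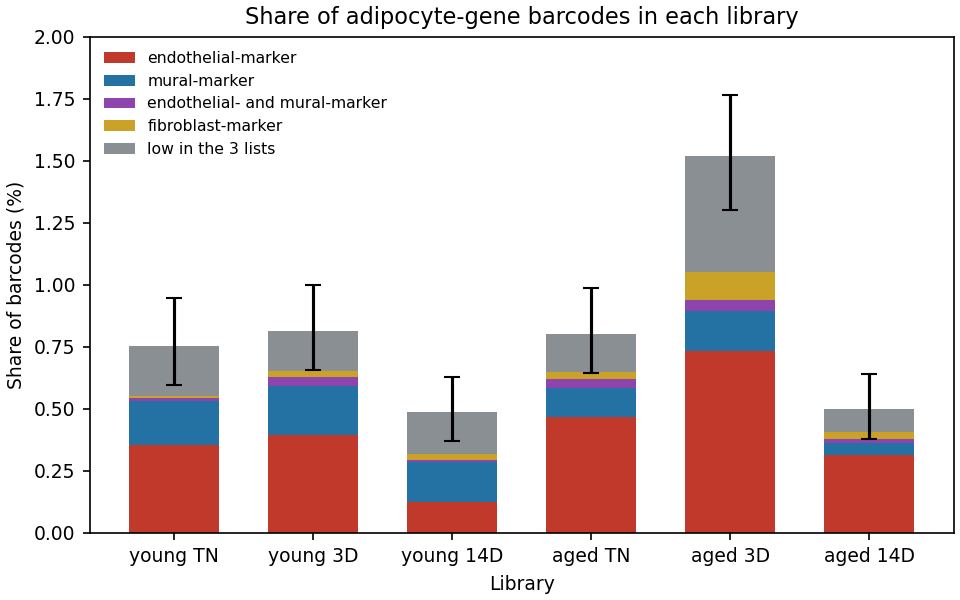
Bars give the adipocyte-gene barcodes as a percent of all barcodes with at least 500 UMIs and over 200 genes in each of the 6 libraries, stacked by kind, with 95% exact binomial intervals for the total. Aged 3D is the tallest at 1.52%, and the 14D libraries are the lowest at 0.487 and 0.497%.

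To ask how the members' RNA differed with age, counts were summed per library and fitted with age and temperature together. Among the 26 genes that fell were 4 of the 9 mural-list genes tested, and 8 genes, Cdkn1c and Has1 included, rose. The edgeR quasi-likelihood test called 34 of 4029 genes (0.844%, threshold 0.05 after adjustment), 8 up and 26 down (0.645% lower in aged), with 528 at an unadjusted p under 0.05. With 1 library for each age and temperature, the p-values rest on the spread left after both terms are fitted. That spread mixes noise between libraries, which may be technical, with any difference of the age effect between temperatures.

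Among the falls, Gm13889, a predicted gene, stood at 754, 722 and 864 CPM in young TN, 3D and 14D and at 208, 171 and 246 CPM in aged (log2 change -1.91, SE 0.18, edgeR adjusted p 0.00115). Acta2, smooth muscle actin, stood at 4685, 4200 and 5196 CPM in young and 2896, 1184 and 1997 CPM in aged (-1.29, adjusted p 0.0234). For both genes every young library was above every aged one. The contractile genes Tagln (-1.27) and Myh11 (-1.20) fell as well, and so did Notch3 (-1.10), the mural Notch receptor. With Acta2 these were 4 of the 9 mural genes tested, whose median change was -1.08 against 0.03 over all genes tested. Mylk, a contractile gene of the list, was at -0.84 (adjusted p 0.1). Other falls were Meg3 (-2.49), a long noncoding RNA, Map3k7cl (-1.77), Olfml2a (-1.65) and Olfr558 (-1.46).

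Alongside these falls, the share of the members' UMIs in mural-marker members was lower in aged libraries. Their number overlapped between the ages, at 18, 22 and 19 in young TN, 3D and 14D and 13, 18 and 6 in aged. Mural-marker members held 42.1, 37.2 and 51.8% of the members' UMIs in young TN, 3D and 14D and 28.9, 14.0 and 18.5% in aged. Of the UMIs of the 26 fallen genes, a median of 92.8% (50.3 to 98.8%) lay in mural-marker members, which held 29.2% of all members' UMIs. Within mural-marker members Acta2 stood at 11112, 10720 and 9895 CPM in young and 9762, 8429 and 10254 CPM in aged, so the groups overlapped. Gm13889 within them stood at 1771, 1928 and 1640 CPM in young and 695, 1227 and 1005 CPM in aged, without overlap. In the other mural-marker barcodes Acta2 stood at 9796, 9180 and 9606 CPM in young and 9014, 7941 and 6360 CPM in aged, without overlap. Gm13889 stood there at 1882, 1630 and 1531 CPM in young and 1621, 1588 and 1097 CPM in aged, and the ages overlapped. When the 86 Plin1-only members were left out, an alternative added after the data were seen, no gene of 2840 passed the edgeR test for age, with 109 at an unadjusted p under 0.05. Of the 34 genes 18 were still abundant enough to be tested there, and 17 of these kept their direction, Cdkn1c at 1.71 and Has1 at 2.15 (adjusted p 0.171 for both). In sums over all members, fewer cells of a type and less RNA per cell cannot be told apart.

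Among the rises, Cdkn1c, an inhibitor of cyclin-dependent kinases at chr7:143458339-143461050, stood at 89.1, 79.2 and 40.9 CPM in young and 303, 273 and 228 CPM in aged (1.95, edgeR adjusted p 0.00445). It also differed within the endothelial-marker members, at 183, 138 and 111 CPM in young and 459, 509 and 340 CPM in aged (1.63, adjusted p 0.0405). In both settings every aged library was above every young one. It was 1 of 2 genes called among the 2268 tested in the endothelial-marker members (0.0882%). The other was Me1, an NADPH-producing enzyme of fatty acid synthesis, named after its values were seen, which was lower in aged (-1.43, adjusted p 0.0405). Without the 9 members past the fibroblast limit both were called again (1.63 and -1.35), with S100a6 and Map1b, named after their values were seen, as 4 of 2074 genes (0.193%).

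Has1, a hyaluronan synthase, stood at 37.1, 27.9 and 36.4 CPM in young and 159, 119 and 204 CPM in aged (2.21, edgeR adjusted p 0.00445). In the fibroblast-marker members it stood at 19.9 and 189 CPM in young 3D and 14D and at 981, 633 and 1032 CPM in aged, while young TN held 1 such member with 651 UMIs and none of Has1. These values rest on few barcodes, 3 and 3 in young 3D and 14D and 3, 13 and 3 in aged TN, 3D and 14D. In the endothelial-marker members the ages overlapped, at 48.2, 52.4 and 0 CPM in young and 170, 33.9 and 111 CPM in aged. Pltp, a phospholipid transfer protein (1.69), the myosin Myo10 (1.49) and the taurine transporter Slc6a6 (1.48) rose too, and outside the naming rule Dcn, Aebp1 and Ushbp1 completed the 8. Endothelial-marker members held 38.5, 35.5 and 16.3% of the members' UMIs in young TN, 3D and 14D and 53.6, 46.8 and 58.8% in aged. Myo10 stood at 144 CPM in them and at 18.6 CPM in mural-marker members. The part of this shift in the rises was not tested. None of the 18 adipocyte identity genes tested was called for age (median change 0.30), nor was any of the 12 lipid droplet, 14 de novo lipogenesis, 16 fatty acid oxidation, 13 adipokine, 12 adipogenic factor or 12 endothelial genes (median change 0.62 for the endothelial list). At a share of 0.844% over all genes, lists of this size would hold less than 1 call, so these counts do not set the lists apart.

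The age counts shifted when a library was left out: 13 genes without young TN, 128 without young 3D, 71 without young 14D, 125 without aged TN, 124 without aged 3D and 74 without aged 14D. All 34 genes kept their direction in each of these 6 fits, but only 7 of them were still called without young TN, against 29 to 33 in the other 5 fits.

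After cold exposure Nnat was lower in the members, and Agpat2, Cox8b, Ptx3 and Ccl7 were higher. Temperature changed 5 of 4029 genes (edgeR, 0.124%, with 266 at an unadjusted p under 0.05). Nnat, neuronatin, at chr2:157560078-157562522 on the plus strand, stood at 627, 109 and 13.6 CPM in young TN, 3D and 14D and at 512, 121 and 46.4 CPM in aged (log2 change -2.31 at 3D and -4.27 at 14D, SE 0.40 at 14D, adjusted p 0.0012). Both TN libraries were above all 4 cold ones. In the other barcodes it stood at 3.16 to 6.32 CPM. In the other endothelial-marker barcodes it was likewise highest at TN, at 17.0, 4.82 and 1.73 CPM in young and 22.7, 7.68 and 5.48 CPM in aged. Within the endothelial-marker members it went from 1032 and 671 CPM at TN to between 32.8 and 126 CPM in the cold (-3.76 at 14D, adjusted p 0.0144), and it was called also without the Plin1-only members (-4.21, adjusted p 0.0178).

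Agpat2, which makes phosphatidic acid for triglyceride, stood at 174, 526 and 405 CPM in young and 144, 662 and 381 CPM in aged (1.89 at 3D and 1.27 at 14D, edgeR adjusted p 0.0407). Cox8b, a cytochrome c oxidase subunit of muscle and thermogenic fat, stood at 29.7, 172 and 114 CPM in young and 11.4, 624 and 195 CPM in aged (4.10 at 3D and 2.83 at 14D, adjusted p 0.0379). For both genes the TN libraries were the 2 lowest. In the other endothelial-marker barcodes Agpat2 was likewise lowest at TN, at 12.2, 44.1 and 27.0 CPM in young and 17.3, 37.6 and 25.1 CPM in aged. A single barcode gave 207 of the Cox8b UMIs of aged 3D, and without it and the 4 red blood cell barcodes aged 3D stood at 320 CPM in place of 624. Cox8b was still called in that setting (adjusted p 0.00902). Neither gene was called with DESeq2's size factors in the edgeR fit, nor without the Plin1-only members, where Nnat was the only gene called.

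The other 2 rises were low counts of stromal genes, Ptx3, a secreted pentraxin, at 11.1, 34.9 and 300 CPM in young and 3.79, 57.2 and 218 CPM in aged (adjusted p 0.00293), and the chemokine Ccl7 (2.40 at 3D, adjusted p 0.0473). Other barcodes held more Ptx3, 200 to 377 CPM. Most Ptx3 lay in a few fibroblast-marker members, 62 of 66 UMIs in 3 barcodes of young 14D and 44 of 47 UMIs in 3 barcodes of aged 14D. The UMI share of fibroblast-marker members moved alongside, from 0.242% in young TN and 6.57% in aged TN to between 11.7 and 16.9% in the cold libraries, and its part in the Ccl7 result was not tested.

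In endothelial-marker members alone, a set added after the data were seen, 7 of 2268 genes changed with temperature (0.309%). Nnat and Hp fell (Hp -1.29 at 14D, edgeR adjusted p 0.0171). Cox8b and 4 other genes rose: Thrsp, a regulator of lipogenesis (1.24, adjusted p 0.0341), Scd1, the stearoyl-CoA desaturase (1.76, adjusted p 0.0144), Me1 (1.63, adjusted p 0.037) and Mpc2, a mitochondrial pyruvate carrier subunit (1.71, adjusted p 0.0341). Without the 9 members past the fibroblast limit, 33 of 2074 genes were called (1.59%). They included all 7, Agpat2, and 6 of the 9 de novo lipogenesis genes tested (Acly, Fasn, Me1, Scd1, Thrsp and Tkt, each higher at 14D). Thrsp stood at 608, 1829 and 1809 CPM in young and 580, 1280 and 1121 CPM in aged endothelial-marker members, and Scd1 at 492, 1075 and 1865 CPM in young and 438, 720 and 1335 CPM in aged. All cold libraries were above both TN libraries for each gene. The other endothelial-marker barcodes held less of these genes. In them Thrsp stood at 162, 265 and 237 CPM in young and 190, 173 and 123 CPM in aged, so that in aged it was highest at TN. TN was lowest at both ages for Scd1, at 59.4, 103 and 108 CPM in young and 52.8, 87.6 and 107 CPM in aged, and for Cox8b, at 4.47, 20.6 and 13.1 CPM and 5.63, 27.5 and 19.3 CPM. Without the barcodes past the fibroblast limit Thrsp in the others stood at 287, 432 and 379 CPM in young and 255, 292 and 274 CPM in aged. Whether the temperature changes differed between members and these barcodes was not tested.

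The lipogenic list was also summed over all members. The sum of the 20 de novo lipogenesis genes was 2420, 5397 and 4710 CPM in young and 2054, 4679 and 4329 CPM in aged members, against 716 to 880 CPM in the other barcodes. The median change of the 14 tested was 1.04 at 3D and 0.68 at 14D, against 0.01 and -0.01 over all genes. None was called by edgeR (Thrsp adjusted p 0.0964, Scd1 adjusted p 0.158), which at a share of 0.124% over all genes does not set the list apart, while DESeq2 called both Thrsp (adjusted p 0.00387) and Scd1 (adjusted p 0.0126).

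**Figure D4:**
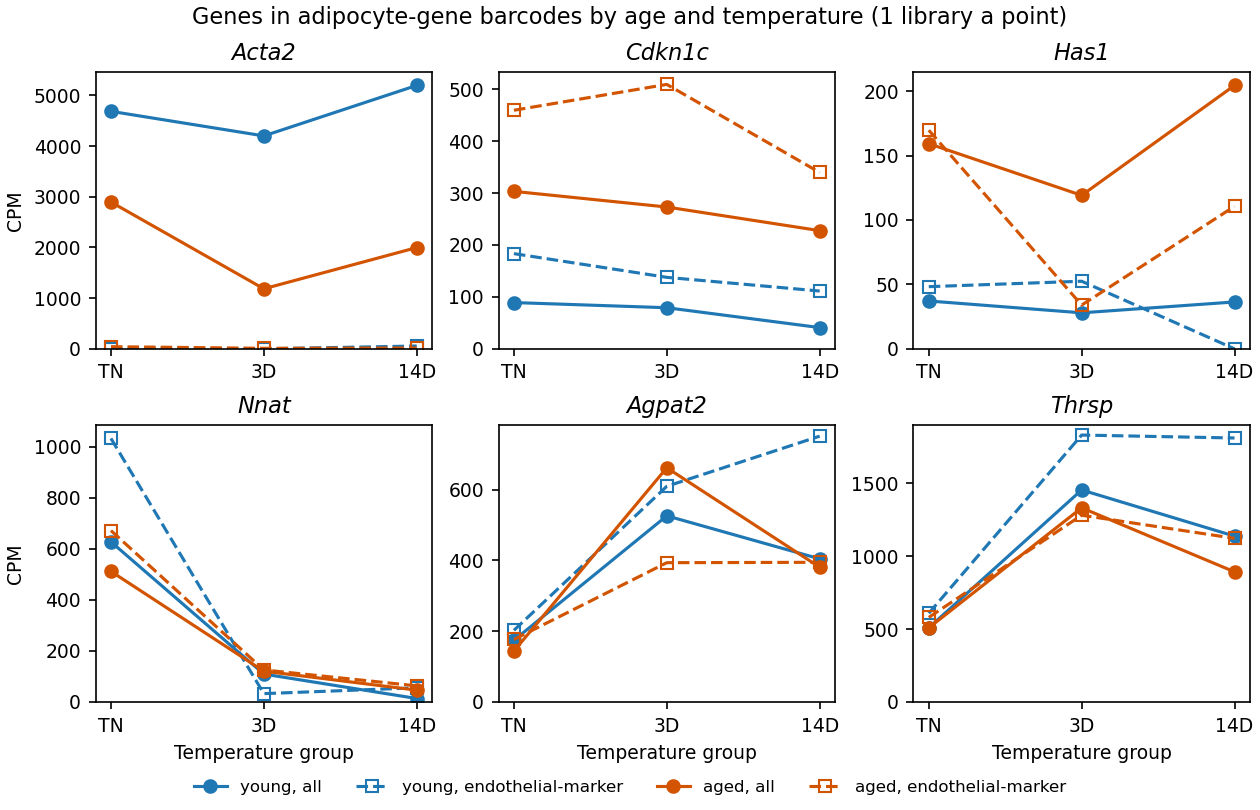
CPM of 6 genes by temperature group (TN, 3D, 14D), with 1 library a point, young in blue and aged in orange. Filled circles with solid lines are all adipocyte-gene barcodes and open squares with dashed lines are the endothelial-marker ones, in which Acta2 is near 0, Cdkn1c is higher in aged libraries, Nnat drops from TN and Thrsp is higher in the cold.

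The number of genes called for temperature was 8 without young TN, 73 without young 3D, 82 without young 14D, 40 without aged TN, 68 without aged 3D and 120 without aged 14D.

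Whether age acted differently in the members than in the rest of the fraction was tested with an interaction between age and membership. The age effect differed for 140 of 14197 genes (0.986%, edgeR adjusted p under 0.05), 55 higher and 85 lower in members, with 1042 at an unadjusted p under 0.05. Cd9, a tetraspanin, stood at 260, 240 and 264 CPM in young and 235, 124 and 139 CPM in aged members, while the other barcodes went from 164, 202 and 157 to 399, 395 and 347 CPM (difference of log2 changes -1.80, adjusted p 2.55e-09). Postn, periostin, stood at 523, 238 and 431 CPM in young and 61.3, 63.2 and 88.4 CPM in aged other barcodes, and in members at 96.5, 310 and 305 in young and 174, 156 and 125 CPM in aged (difference 1.83, adjusted p 3.14e-09). The differences for Has1 (1.91) and Cdkn1c (1.50, adjusted p 1.09e-05) were in the direction of their rise in members. For Pltp the difference was 0.07 (SE 0.28) and for Meg3 it was -0.35 (SE 0.32), and neither was called.

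The cell makeup of the comparison sets differed, since most other barcodes carried fibroblast markers. Between endothelial-marker members and other endothelial-marker barcodes the age effect differed for 5 of 11217 genes (0.0446%). It was higher in members for Ifi27l2a and Hbb-bt and lower for Ctsk, Gm12840 and Map1b, all named after their values were seen. For Hbb-bt, a haemoglobin gene, 268 of the 270 UMIs of aged 3D endothelial-marker members lay in 1 barcode. Ifi27l2a, an interferon-inducible gene, stood at 4226, 2124 and 2560 CPM in young and 3718, 5173 and 4454 CPM in aged endothelial-marker members, and at 942, 607 and 802 and then 330, 696 and 563 CPM in the others (difference 1.37, edgeR adjusted p 0.000352). Without the barcodes past the fibroblast limit the Ifi27l2a difference was 0.17 (adjusted p 1.0), and the age effect differed for 3 of 9016 genes (0.0333%), of which Hbb-bt was the only one of the 5. The interaction count was 106 without young TN, 159 without young 3D, 68 without young 14D, 146 without aged TN, 61 without aged 3D and 96 without aged 14D.

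The thermogenic genes summed to 447 to 2150 CPM per library in members, against 357 to 400 CPM in the other barcodes. The 2150 CPM was aged 3D, where 1 barcode held 959 UMIs of these genes, and the other libraries stood at 447 to 698 CPM. Of the 26 thermogenic genes 7 were higher in members in all 6 libraries. Only 4 of the 26 were tested and 5 had no UMI in members. The count thus cannot be set against the 37.7% of all genes tested. Ucp1, the uncoupling protein of beige and brown adipocytes at chr8:83290352-83298452, came mostly from 1 barcode. Members held 0, 14 and 0 Ucp1 UMIs in young TN, 3D and 14D and 1, 346 and 0 in aged. Of the 346, 343 lay in a single aged 3D barcode, and the next highest member held 6, in young 3D, where 7 members had any. The counts of 0 allow up to 11.1 CPM in young TN, 13.6 CPM in young 14D and 13.9 CPM in aged 14D (3 counts of the members' UMIs). Outside the rule, Ucp1 was found in 3, 74 and 57 young and 5, 23 and 12 aged barcodes.

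The single barcode was the deepest member, with 34232 UMIs, 4346 genes and 32.6% mitochondrial UMIs. Besides Ucp1 it held 149 UMIs of Cidea, a droplet protein of thermogenic adipocytes, 207 of Cox8b, 88 of Cox7a1 and 94 of Fasn, the fatty acid synthase. The 26 thermogenic genes made up 2.80% of its UMIs. It had 15 endothelial, 2 mural and 16 fibroblast-list UMIs, none of Pecam1, Cdh5, Myh11, Pdgfra or Col1a1, and 5 of Car3. Of the thermogenic list Ckmt2, Cpt1b, Esrrg, Fgf21 and Zic1 were at 0 in all members, and 4 genes of the list were tested.

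**Figure D5:**
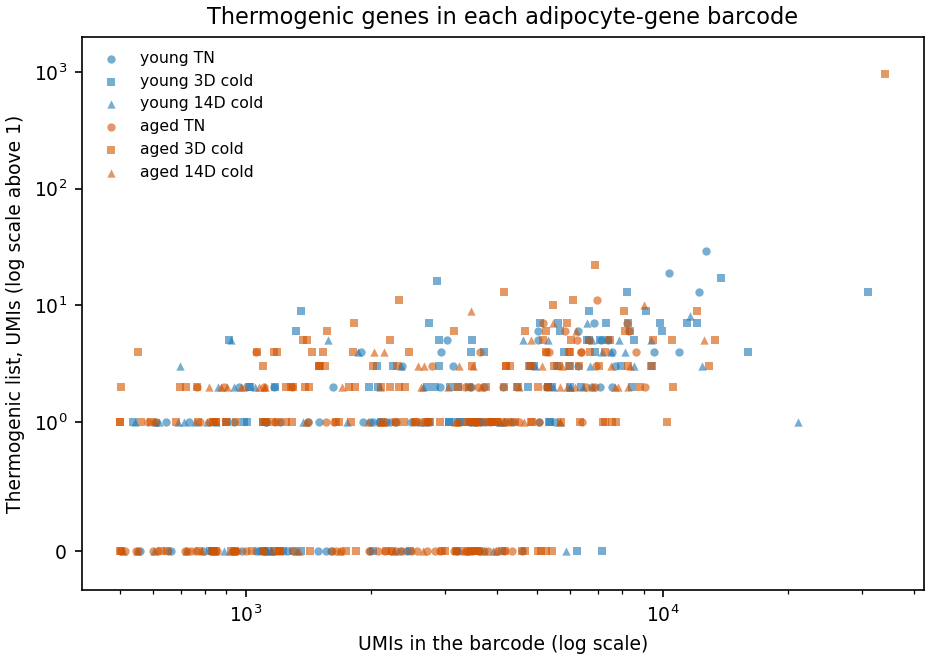
Each point is 1 of the 544 adipocyte-gene barcodes, with its UMIs on the x axis and its UMIs of the 26 thermogenic genes on the y axis, both on log scales (the y axis is linear below 1), coloured by age and shaped by temperature group. The aged 3D barcode with 34232 UMIs stands alone at the top right with 959 thermogenic UMIs.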

How the data were processed

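Stromal vascular cells of iWAT were profiled in 6 single-cell RNA sequencing libraries (10x 3' chemistry). Per the labels and the submitters' processing notes, the authors made the deposited counts of UMIs per gene and barcode with Cell Ranger 3.1.0 on mm10, and used R 4.1.1 and Seurat for later steps that are not in these counts. The libraries held 88508349, 87368343, 87219354, 68479481, 74590296 and 52068837 UMIs, of which members held 215289 to 629821.

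Barcodes were selected by the stated rule with Python 3.11.15 and scipy 1.17.1, without a doublet caller. The members and the gene lists were chosen with earlier results of these data known. Members' counts were summed per library and tested with edgeR 4.0.16 (quasi-likelihood, TMM, 2 residual degrees of freedom), with age and temperature as terms and Benjamini-Hochberg adjustment over all genes kept by edgeR's filter. The interaction fit took members and other barcodes of each library, with library as a term. CPM compares a gene between libraries, not levels between genes. DESeq2 1.42.0, other filters, other member rules and leaving out each library were alternatives. In simulated counts for the age fit 99% of 4-fold and 47.5% of 2-fold changes were recovered, for temperature 91.5% and 5%. For the interaction these were 91.5% and 10.5%. The changed genes were drawn from those at or above the median level, with 1 dispersion for all genes. Recovery for lower genes was not tested.

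Genes were named by rule: the members of the rule and Car3, the 4 most abundant genes of each list, the 10 with the largest fold over other barcodes, the 5 largest changes in each direction, and the study's named genes. Genes ranked by fold needed at least 100 CPM, and genes named by change at least 50 CPM. Reads in the counted part of a gene that overlaps another on the other strand cannot be checked here.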

Additional observations from a re-analysis of the deposited data

Results flagged for a closer look

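The age effect differed between adipocyte-gene barcodes and all other barcodes for 140 genes in the edgeR interaction test. The difference of log2 age changes, members minus others, was -1.80 for Cd9, 1.83 for Postn, 1.91 for Has1, 1.50 for Cdkn1c and 1.76 for Ifi27l2a. Against other endothelial-marker barcodes, Ifi27l2a was the gene of these 5 that was still called (1.37), while Cdkn1c was at 1.34 with an edgeR adjusted p of 0.106 and Has1 at 0.65. With barcodes past the fibroblast limit left out of both sets none of the 5 was called, Ifi27l2a was at 0.17 and Cdkn1c at 1.28 with an edgeR adjusted p of 0.0511.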

How the results depend on the processing

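The counts of genes called for age, temperature and the age interaction (34, 5 and 140) moved with the fit, the tool and the choice of members. For age the count was 179 without a filter, 4 without temperature as a term, 0 with at least 6 UMIs at 10 per 10000, 6 with at most 10% mitochondrial UMIs, 0 in the 438 members whose adipocyte list exceeded the other lists, 0 without Plin1-only members, 0 in the low members, 2 in endothelial-marker members, 56 without the Ucp1 and red blood cell barcodes and 6 after thinning to 500 UMIs. For temperature these settings gave 103, 2, 0, 34, 1, 1, 0, 7, 9 and 6, and it was 2 with DESeq2's size factors and 2 with at least 1000 UMIs. For the interaction it was 32 with DESeq2, 20 with at least 6 UMIs, 18 in the 438 members, 61 with at most 10% mitochondrial UMIs, 23 without Plin1-only members, 0 in low and 5 in endothelial-marker members against their like. Endothelial-marker members under the fibroblast limit gave 4, 33 and 3 genes. DESeq2 called 24 genes for age, 20 of them shared with edgeR. Leaving out 1 library gave 13 to 128, 8 to 120 and 61 to 159 genes. The cause of these moves was not tested, except that smaller member sets hold fewer UMIs.

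The age difference in the share of members was 0.511 points after thinning to 500 UMIs, 0.0851 points with at least 6 UMIs, -0.0703 points for mural-marker members, and -0.0362 to 0.475 points when 1 library was left out. Of 484 values of 28 gene results under alternatives, 352 kept direction and side of the threshold, 100 lost and 26 gained the call, and 6 reversed: the age change of Postn in the 438 members (0.065), and the interaction of Acta2 with at least 6 UMIs (7.03) and in endothelial-marker members (0.75, and 1.39 under the fibroblast limit), of Cdkn1c in low members (-0.16) and of Postn in low members (-4.71). The fits already compared ages within temperature and members with others within a library. By replicate number, no paired analysis was possible because each group is 1 library. A count of 0 in a library allows 4.76 to 13.9 CPM.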
